A study of Mus musculus with 8 samples.

Results

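In situ Hi-C libraries of mouse B cells sorted before S phase at 33 h of activation (pre-S) were compared with libraries of B cells at 10 h. The comparison took 4 of the 8 libraries of the series, chosen by their labelled time and stage, with 2 biological replicates a group. Of 47332 autosomal bins of 50 kb that were kept, 46992 entered the comparison, because chromosome 15 from 55 to 72 Mb, which earlier work on these data had found rearranged in the pre-S libraries, was left out. The study asked at which stage of the first cell cycle the genome of an activated B cell is reorganized. Splenic B cells of male mice aged 6 to 12 weeks, on a C57BL/6 Pep3b background per the study's methods, were labelled with CellTrace Violet (CTV), a dye diluted at each division, and stimulated with 25 µg/ml lipopolysaccharide (LPS) from Salmonella. Both groups shared this isolation, label and stimulus, and both were sorted as activated, undivided cells by surface markers including CD69 and by the highest CTV signal. By the labels, the 10 h cells came from C57BL/6 mice. The pre-S cells came from C57BL/6 FUCCI mice, whose transgenes express an orange reporter (mKO2) in G1 and a green reporter (mAG) from S phase on, and were gated at 33 h as mAG-negative and mKO2-high. Strain, reporter gate and time therefore changed together between the groups and cannot be told apart. The imminent division libraries, whose values are set beside some results, were undivided C57BL/6 cells at 33 h without a gate on the cell cycle, and their comparison with 10 h uses the same 10 h libraries.

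LPS acts through Toll-like receptor 4 and drives a resting B cell through a long first G1 phase before it synthesises DNA, divides and may become an antibody-secreting plasmablast. In Hi-C, crosslinked chromatin is cut, here with MboI at GATC, nearby ends are ligated, and each sequenced pair counts a contact between 2 bins. Contacts are organized in compartments, the active, gene-rich and GC-rich A and the inactive, gene-poor and AT-rich B, and in topologically associating domains (TADs), stretches that contact themselves more than their surroundings and are bounded by CTCF and cohesin. Pair counts also rise with how well each bin is cut, amplified and mapped. Coverage, the read ends that a bin contributed to contacts with other chromosomes, was therefore compared first and then used as a second set of offsets. Contacts between chromosomes can themselves change, so coverage is not a pure measure of these biases. Which offsets suit the cis counts better was not tested. In a bulk library, a change in the share of cells that hold a contact and a change in its frequency in each cell cannot be told apart.

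Coverage changed with the GC content of bins, as given below. Windows of 64 bases around 1 MboI site are therefore shown from an anchor of 4 interactions described below. The first pair lies in AT-rich B bins that gained counts in pre-S cells with the first offsets only. The second pair lies in GC-rich A bins, in Pax5 and beside the class II MHC gene H2-Oa, that lost contacts under both offsets. The pairs were chosen by unlike rules, so their contrast in GC content is no separate result. All are on the plus strand of GRCm38 with the cut site in capitals.
chr15:15374400-15374463: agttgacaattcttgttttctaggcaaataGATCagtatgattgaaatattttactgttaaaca
chr2:81324802-81324865: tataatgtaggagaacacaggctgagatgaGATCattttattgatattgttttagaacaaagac
chr4:44624538-44624601: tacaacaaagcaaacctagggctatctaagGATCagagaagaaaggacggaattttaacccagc
chr17:34075878-34075941: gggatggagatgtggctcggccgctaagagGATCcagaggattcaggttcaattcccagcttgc
The windows held 26.6%, 31.3%, 42.2% and 56.3% G and C in this order, and their whole bins 35.9%, 37.4%, 48.1% and 52.2%. Each bin held 110 to 144 MboI sites.

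The 10 h libraries held 116957398 and 153258311 read pairs and the pre-S libraries 117386199 and 105015427, within the 88703088 to 218945191 of all 8 libraries. Interchromosomal pairs made up 24.1% and 24.6% at 10 h and 24.8% and 26.8% in pre-S cells. The median bin held 1146 and 1533 interchromosomal read ends at 10 h and 1188 and 1144 in pre-S cells. All 8 B cell marker genes with a component value, among them Cd79a, Cd79b, Ms4a1, Cd22, Pax5, Ebf1 and Cr2, lay in compartment A in all 4 libraries, but so did all 10 T cell and all 11 myeloid markers. The compartments therefore did not separate these cell types. Of 9 natural killer and erythroid markers, 9 lay in A in each 10 h library and 8 in each pre-S library, and of 12 liver and neural markers 5 and 6 did at 10 h and 5 and 5 in pre-S cells.

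Coverage rose in AT-rich bins and fell in GC-rich bins of pre-S cells. In the decile of bins with the lowest GC content (median 36.4%), the median log2 coverage relative to the 10 h mean was 0.41 and 0.39 in the pre-S libraries and −0.01 and 0.01 in the 10 h libraries. In the decile with the highest GC content (median 49.5%) it was −0.18 and −0.11 in the pre-S libraries. Both pre-S libraries lay apart from both 10 h libraries at these ends of the scale. The imminent division libraries lay at 0.23 and 0.04 in the AT-richest decile. Across bins the change had an SD of 0.23 on the log2 scale, against 0.06 between the 10 h replicates and 0.08 between the pre-S replicates, and its Pearson r with GC content was −0.71 over the 46992 bins, which share libraries and base composition and are no independent replicates.

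**Figure D1:**
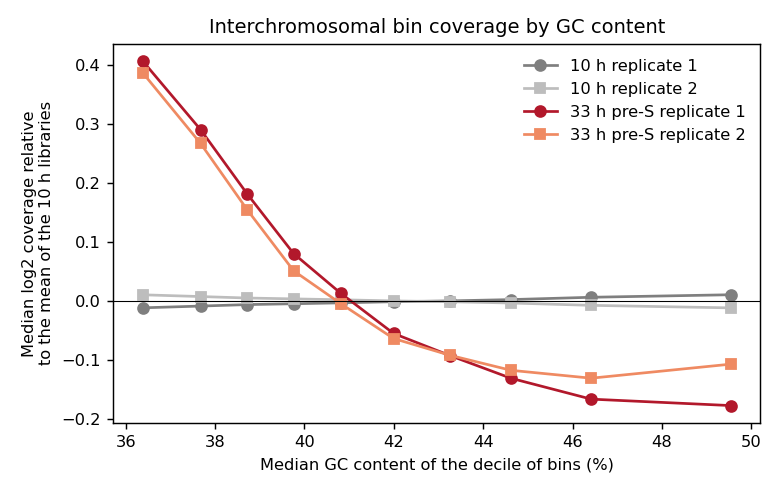
Median log2 interchromosomal coverage of a bin relative to the mean of the 10 h libraries (y axis) against the median GC content of deciles of the bins (x axis, %), with a line for each of the 4 libraries. The pre-S lines run from 0.41 and 0.39 in the AT-richest bins to −0.18 and −0.11 in the GC-richest, while the 10 h lines stay near 0.

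By edgeR's quasi-likelihood test, 49.7% of the bins changed coverage at an FDR of 5%, 12555 upward (26.7%) and 10801 downward (23%). The median log2 change was 0.16 over B bins, of which 74.0% lay above the 10 h mean, and −0.10 over A bins, of which 18% did. GC content and compartment were only partly separable. In the lowest tercile of GC the median was 0.31 over B bins and 0.02 over A bins, and in the highest it was −0.13 over B bins and −0.14 over A bins. Leaving out 10 h replicate 1, 10 h replicate 2 or pre-S replicate 1 lowered the count of falling bins to 5987, 6394 and 5896, while no such change exceeded 1.5 times for rising bins.

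The single bins that led by p changed more than any of their neighbours, in 1 case by little. Among bins that rose was chr13:89849685-89900196, inside Xrcc4, which encodes a DNA ligase IV partner in end joining. It held 19.4 and 20.7 CPM (of a library's interchromosomal ends in the bins compared) at 10 h and 39.0 and 40.3 in pre-S cells. Both pre-S libraries were far above both 10 h libraries, a log2 change of 0.98 ± 0.05 (SE, n = 2 libraries a group, as for every SE below; FDR = 4.67e-17). Over all off-diagonal read ends of the bin, those within its chromosome included, the log2 change was 0.52. The 10 neighbouring bins moved by −0.03 to 0.10, and the imminent division libraries were at 19.8 and 19.2. The first bin of chromosome 1 (chr1:3000191-3049670) rose from 65.1 and 63.3 to 130 and 139 CPM (1.07 ± 0.05), and the bin chr18:90050201-90100049 rose by 0.87 ± 0.06, and neither held a protein-coding gene. Among bins that fell, the first bin of chromosome 17 (chr17:3000418-3050005) went from 69.1 and 65.9 to 43.0 and 45.0 (−0.62 ± 0.06), with 39.1 and 39.6 in the imminent division libraries. A bin of Sfmbt2, a Polycomb group gene whose intron holds a large microRNA cluster, fell by 0.62 on the log2 scale (chr2:10449947-10500085), while its neighbours moved by −0.48 to 0.06. The bin chr8:12200327-12249862 fell by 0.46 on the log2 scale, close to its 10 neighbours at −0.43 to −0.22. What differs in these bins was not tested.

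Interactions between 1445761 pairs of bins were then compared, first with offsets fitted by loess to abundance, as the study's methods state, and then with the coverage of both bins also in the offsets. With loess offsets 7255 pairs (0.502%) were differential interactions (DIs), of which 4428 (0.306%) were strengthened and 2827 (0.196%) weakened in pre-S cells. With coverage in the offsets there were 8041 DIs (0.556%), 2852 strengthened (0.197%) and 5189 weakened (0.359%), so most calls were strengthened with the first offsets and weakened with the second. Other settings moved the counts too, to 3006 strengthened and 6655 weakened with 1 TMM factor a library. With offsets per distance class they were 978 and 912, and by DESeq2 52 and 15. With loess offsets, the 4428 strengthened DIs were mostly short contacts in AT-rich B chromatin. Of them, 65.2% joined adjacent bins, against 3.23% of all tested pairs, and 87.8% joined B with B. Their anchors had gained a summed median of 0.74 in log2 coverage. The 2827 weakened DIs were mostly A with A (91.9%), with a median span of 350 kb and a median GC content of 47.0%. With coverage in the offsets it was the 5189 weakened DIs of which 51.2% joined adjacent bins and 78.7% B with B. Of the 2852 strengthened DIs, 57.8% then joined A with A. In the decile of pairs whose anchors gained most coverage, 1.71% were strengthened and 0.002% weakened with loess offsets, and 0.001% and 2.55% with coverage in the offsets. The anchors there had gained a summed median of 0.88, while the pairs changed by a median of 0.38 with loess offsets and −0.42 with coverage.

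**Figure D2:**
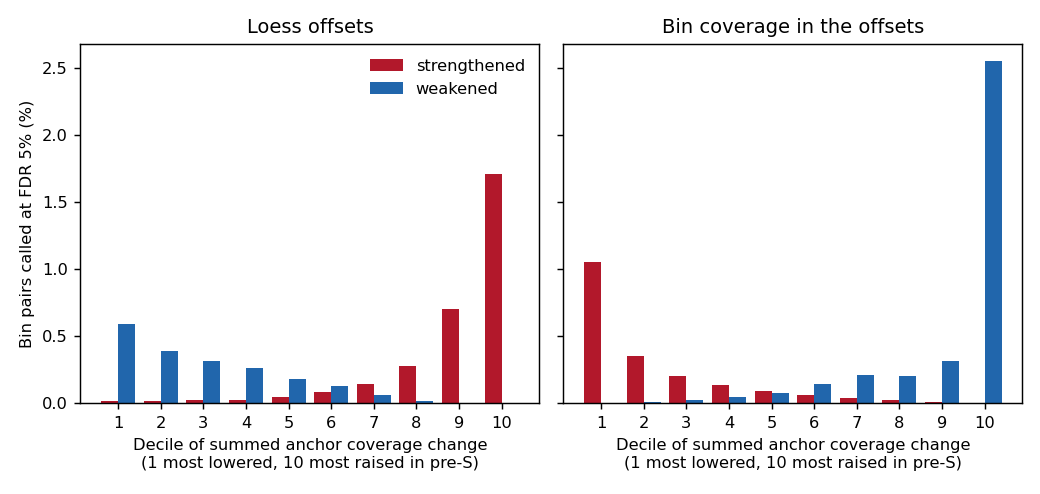
Share of tested bin pairs called strengthened (red) or weakened (blue) at FDR 5% (y axis, %) in deciles of the pairs ordered by the summed coverage change of their anchors (x axis, 1 most lowered, 10 most raised in pre-S cells), for both kinds of offset. In the last decile the strengthened share is 1.71% with loess offsets, and the weakened share is 2.55% with coverage in the offsets.

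The 2 strengthened DIs that led by p with loess offsets were not called with coverage in the offsets, whereas a pair inside Thsd7a with nearly the same p as the latter of them was called with both. The pair chr15:15349968-15399503 and chr15:15399500-15450027, adjacent gene-free B bins, had 93.3 and 98.5 normalised counts at 10 h and 209 and 176 in pre-S cells (1.01 ± 0.14, FDR = 1.1e-05). With coverage in the offsets the same pair had 111 and 116 at 10 h and 117 and 115 in pre-S cells, a log2 change of 0.03. The pair chr2:81299211-81350217 and chr2:81350214-81399885 behaved alike, from 85.9 and 92.5 to 181 and 178 with loess offsets (1.00 ± 0.15) and from 121 and 125 to 97.4 and 99.7 with coverage (−0.32 ± 0.16, FDR = 0.443). The anchors of these pairs had gained 0.40 to 0.66 in log2 coverage each. They are the AT-rich anchors whose MboI windows are printed above.

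Calls that held under both offsets numbered 336 strengthened and 488 weakened, while 235 pairs called strengthened with loess offsets were called weakened with coverage, and 0 pairs did the reverse. Both pre-S libraries lay on 1 side of both 10 h libraries in all 336 and all 488 of them, and the median coverage change of their anchors was near that of all pairs (−0.09 and −0.05 against −0.06). The choice of calls with the same sign under both offsets favours both traits, so neither is a separate result. The strengthened ones had a median span of 550 kb and joined A with A in 33.9%, A with B in 36.6% and B with B in 29.2%, where the shares over all tested pairs were 43.3%, 16.1% and 40.0%. Of the weakened ones, 89.5% joined A with A, with a median span of 450 kb and a median log2 change of −1.08. Chromosome 11 held 101 of the 488, of 78154 pairs tested there. The counts rested on all 4 libraries: leaving out 10 h replicate 1, 10 h replicate 2, pre-S replicate 1 or pre-S replicate 2 left 431, 382, 161 and 1113 strengthened and 279, 221, 43 and 435 weakened DIs with loess offsets.

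Of the 5 leading weakened DIs that held both ways, 3 joined bins with genes, at Pax5, in the class II MHC region and at the Ly6 genes. The leading DIs of both directions that held both ways were chosen among pairs whose libraries did not overlap between the groups. The contact from Pax5, the transcription factor that maintains B cell identity (chr4:44600031-44649696), to the bin of Grhpr and Zbtb5 (chr4:44950388-45000533) had 169 and 167 normalised counts at 10 h and 76.1 and 98.7 in pre-S cells. Both pre-S libraries were below both 10 h libraries, by −0.95 ± 0.15 on the log2 scale (FDR = 6.58e-05) and by −0.86 with coverage, and the imminent division libraries were at 92.3 and 91.8. Without pre-S replicate 1 the change was −0.76 (FDR = 0.124). At the class II MHC genes, which present peptides to helper T cells, the contact of the Col11a2 and H2-Oa bin (chr17:34050269-34100632) with the H2-Eb1 and H2-Eb2 bin (chr17:34299742-34350160) fell from 153 and 120 to 71.1 and 58.0. Here the groups did not overlap either (−1.05 ± 0.17, FDR = 0.000114), and the change was −1.02 with coverage and −0.89 without 10 h replicate 1 (FDR = 0.0506). Neither locus had gained or lost much coverage, −0.12 to −0.01 at the 4 anchors, which the choice under both offsets favours. On chromosome 15, outside the segment left out, the bin of Lynx1, Ly6d and Ly6k (chr15:74750206-74800147) lost contact with that of Ly6c2 (chr15:75099967-75150036), genes of the Ly6 family of surface proteins, from 195 and 188 to 107 and 108 (−0.83 ± 0.14), and its FDR was 0.0586 without pre-S replicate 1.

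The other leading weakened DIs had no protein-coding gene at their anchors. The pair chr8:126700532-126750073 and chr8:126850143-126900046 went from 304 and 308 to 188 and 170 (−0.77 ± 0.11, FDR = 1.1e-05, −0.52 with coverage), and the bin chr8:126599702-126650000 lost contact with the first of these from 460 and 424 to 270 and 293. This stretch borders the Tomm20 region described with the boundaries below. The pair chr13:50900557-50949682 and chr13:51350088-51400034 went from 75.9 and 72 to 24.4 and 30.1, the most marked change of the 5 (−1.44 ± 0.24), and was at −1.28 with an FDR of 0.103 without pre-S replicate 1, and DESeq2 gave it no adjusted p. In all of them both pre-S libraries lay under both 10 h libraries.

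The 5 leading strengthened DIs that held both ways lay on 5 chromosomes. From the gene Vcan, which encodes the matrix proteoglycan versican (chr13:89649617-89699932), contact with a gene-free bin 1150 kb away (chr13:90799496-90850227) went from 65.1 and 49.1 to 123 and 127. Both pre-S libraries were above both 10 h libraries (1.15 ± 0.18, FDR = 4.65e-05, and 1.13 with coverage), whereas the imminent division libraries were at 63.5 and 74.1. Without 10 h replicate 2 the change was 0.94 (FDR = 0.0624). The bin of Hspa12a and Eno4 (chr19:58899937-58949956) gained contact with that of Vax1, a homeobox gene of the developing forebrain (chr19:59150197-59200038), from 78.4 and 76.4 to 152 and 149, a change of 0.96 ± 0.16 that was 1.29 with coverage. The bin of Azi2, an adaptor of the TBK1 kinase (chr9:118000182-118050039), rose from 61.0 and 68.2 to 127 and 132 in its contact with chr9:117899680-117950010 (0.99 ± 0.17). Inside Thsd7a, adjacent bins (chr6:12399927-12450163 and chr6:12450160-12500067) went from 134 and 126 to 250 and 220 (0.87 ± 0.13, 0.52 with coverage). The St8sia4 bin, a polysialic acid synthase gene (chr1:95649995-95699774), went from 151 and 184 to 275 and 302 in contact with its neighbour (0.77 ± 0.11, 0.62 with coverage). For Azi2, Thsd7a and St8sia4 too, no pre-S library reached down to a 10 h library.

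**Figure D3:**
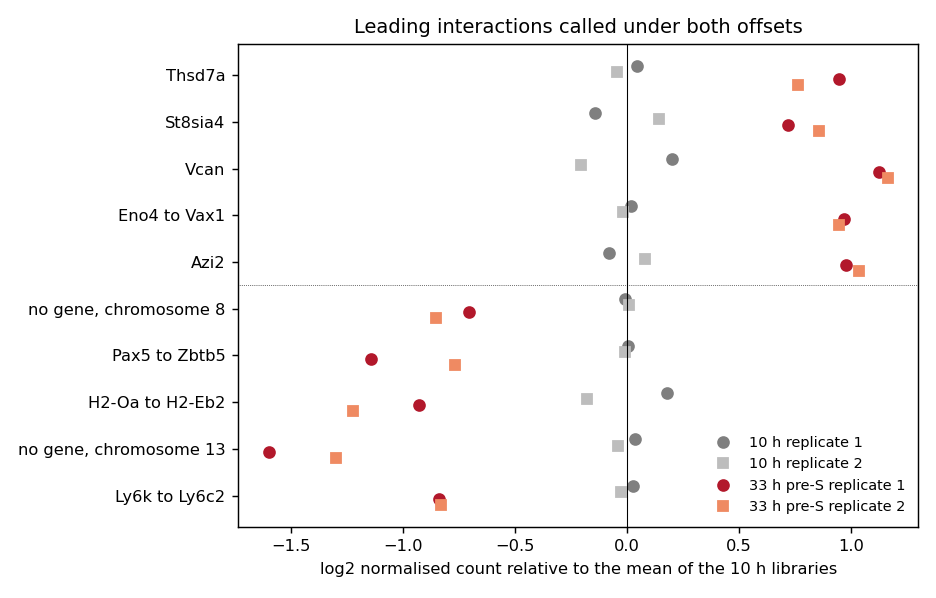
Normalised counts (loess offsets) of the 5 leading strengthened and the 5 leading weakened DIs that held under both offsets, as log2 relative to the mean of the 10 h libraries (x axis), with 1 point per library and a row per interaction named by the genes at its anchors. In each row both pre-S points lie on one side of both 10 h points, as the choice of these interactions required.

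The 488 weakened DIs fell in 234 windows of 1 Mb and the 336 strengthened in 266, of which 23 windows held 5 or more weakened and 2 windows held 5 or more strengthened DIs. The fullest was chromosome 17 from 34 to 35 Mb, which holds the class II MHC genes beside class I and class III genes of the MHC, with 16 weakened DIs, a median log2 change of −0.77 and a median coverage change of 0.00. Of the other windows, chromosome 10 from 80 to 81 Mb held 13, with Tcf3, the E protein E2A, and Stk11, the kinase LKB1. Chromosome 12 from 79 to 80 Mb held 9, with Zfp36l1, an mRNA decay factor, and Rad51b, a recombination gene. The strengthened windows were chromosome 12 from 71 to 72 Mb, with 6 DIs at Dact1 and Daam1 of Wnt signalling, and chromosome 13 from 63 to 64 Mb, with 6 at Ptch1, the Hedgehog receptor, and Fancc.

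Pairs were also summed by distance, as a share of all cis pairs in each library. Contacts at 20 Mb and over made up 27.8% and 28.6% at 10 h and 26.5% and 27.1% in pre-S cells, and those at 5 to under 20 Mb 15% and 15.2% against 14.1% and 14.6%. Contacts at 500 kb to under 1.5 Mb made up 9.62% and 9.78% at 10 h and 10.5% and 10.4% in pre-S cells. Both pre-S libraries thus held fewer long and more mid-range contacts than both 10 h libraries, and dividing each count by the coverage of its bins kept these directions. These shares are given as values per library and were not tested. An exact permutation test of 2 against 2 libraries cannot go below p = 0.333. As counted, adjacent bins (9.39% and 9.06% against 9.55% and 9.15%) and single bins overlapped between the groups. With coverage divided out single bins still overlapped, but adjacent bins made up 9.34% and 9.03% at 10 h and 9.77% and 9.35% in pre-S cells.

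The compartments took different parts in this. As counted, A–A contacts at 20 Mb and over went from 10.4% and 10.5% to 8.60% and 8.80%, while B–B contacts of that range went from 10.4% and 10.8% to 11.4% and 11.2%. With coverage divided out, A–A contacts there were 10.1% and 10.3% at 10 h and 9.91% and 9.90% in pre-S cells, and the order of B–B contacts reversed, with 10.9% and 11.1% at 10 h and 9.44% and 9.51% in pre-S cells. At shorter range the direction of A–A contacts turned. At 100 kb to under 500 kb they went from 10.3% and 10.1% to 9.62% and 9.51% as counted, but from 10.1% and 9.93% to 11.1% and 10.7% with coverage divided out, and both orders held in every distance class under 5 Mb, adjacent bins included. B–B contacts at 500 kb to under 1.5 Mb went from 2.87% and 2.90% to 3.70% and 3.61% as counted, and with coverage divided out the groups overlapped. A–B contacts at that range were higher in both pre-S libraries either way, from 1.80% and 1.86% to 2.05% and 2.09% as counted, and from 1.76% and 1.81% to 2.10% and 2.18% with coverage divided out. Of 25 classes of distance and compartment, 21 did not overlap between the groups as counted and 20 with coverage divided out.

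**Figure D4:**
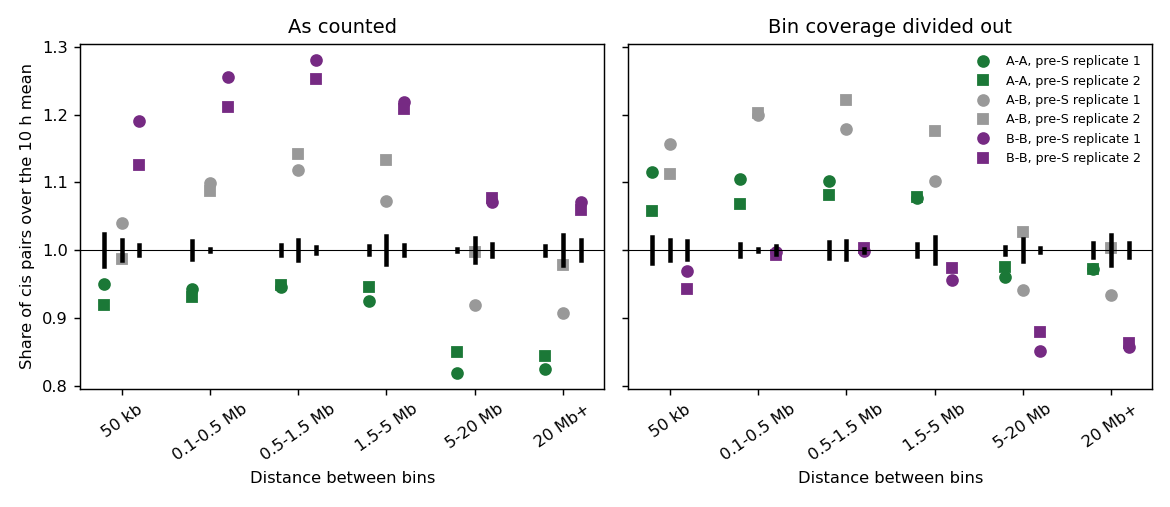
Share of cis pairs in each pre-S library divided by the mean share at 10 h (y axis, ratio) for A–A, A–B and B–B pairs by distance (x axis), as counted and with bin coverage divided out. Vertical black bars span the 10 h libraries. As counted, A–A contacts lie under and B–B contacts over the 10 h values, and with coverage divided out A–A contacts under 5 Mb lie over and B–B contacts at 20 Mb and over lie under them.

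TAD boundaries were compared by the directionality ratio of regions of 100 kb. This is the log2 ratio of contacts upstream over contacts downstream within 1 Mb, which is far from 0 beside a boundary. Of 23516 regions, 1090 (4.64%) changed beyond a fold of 1.1 at an FDR of 5%, of which 424 (1.8%) had a larger absolute ratio in pre-S cells and 666 (2.83%) a smaller. With expected counts from coverage in the offsets the counts were 367 and 437, and 215 larger and 304 smaller held both ways. By their choice, regions with a smaller ratio had a lower absolute ratio in pre-S cells, with medians of 0.89 at 10 h and 0.53 in pre-S cells, and 89.3% of them lay in A. Regions with a larger ratio, chosen likewise, had medians of 0.26 and 0.62, and 63.9% lay in A, where 47.8% of all tested regions lay. The median coverage change was −0.11 in regions with a smaller and −0.07 in those with a larger ratio, against −0.02 over all tested regions. Without 10 h replicate 2, pre-S replicate 1 or pre-S replicate 2 the larger numbered 194, 190 and 280 and the smaller 391, 350 and 365.

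The ratio came closer to 0 at the 4 leading regions with a smaller ratio. At chr12:71100001-71200000, which holds Timm9, a mitochondrial import chaperone, Tomm20l and 2700049A03Rik, the ratio was 1.67 and 1.69 at 10 h and 0.81 and 0.84 in pre-S cells (difference −0.86 ± 0.08, FDR = 1.41e-13). Both pre-S libraries were below both 10 h libraries, and the region lies in the window of strengthened DIs at Dact1 and Daam1. At chr8:126900001-127000000, which holds Tomm20, a receptor of mitochondrial import, and Rbm34, the ratio went from 2.91 and 2.91 to 2.03 and 2.21, beside the weakened DIs of that chromosome. At Cacna1e, a calcium channel gene (chr1:154700001-154800000), it went from −0.49 and −0.61 to −0.02 and 0.07, and at Cracr2a, a regulator of store-operated calcium entry (chr6:127500001-127600000), from 0.59 and 0.60 to −0.06 and −0.10. The imminent division libraries were at 0.64 and 0.65 at Timm9 and at 1.63 and 1.82 at Tomm20.

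Ratios moved away from 0, or past it, at other regions. At Etnppl and Ostc (chr3:130600001-130700000), of which Ostc is part of the oligosaccharyltransferase, the ratio was −0.19 and −0.24 at 10 h and 0.52 and 0.42 in pre-S cells (difference 0.69 ± 0.07, FDR = 1.15e-11). At Bend7 and Sephs1 (chr2:4800001-4900000) it went from 0.28 and 0.24 to 0.86 and 0.85, and at Abr, a regulator of small GTPases (chr11:76500001-76600000), from 0.00 and 0.14 to −0.38 and −0.50. At the heat shock gene Hspa4 (chr11:53200001-53300000) the ratio changed sign, from −0.20 and −0.33 to 0.33 and 0.26, with an absolute change of only 0.03. As their choice required, the groups did not overlap at any of the 8 boundaries named. These kept their call under each alternative that was run for them.

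Compartments changed little in sign. Of 23373 bins of 100 kb, A bins made up 48.4% and 48.6% at 10 h and 47.6% and 47.6% in pre-S cells. The component was shifted in 5569 bins (23.8%) by limma at an FDR of 5%, upward in 2508 (10.7%) and downward in 3061 (13.1%). Without centring, an alternative chosen after seeing the data, 611 bins were shifted upward and 5211 downward. Its sign differed between the groups in all 4 libraries in 61 bins that went from B to A (0.261%) and in 192 that went the other way (0.821%), and 58 and 156 of these also switched with coverage divided out. In 250 kb bins there were 21 and 150 switches, and without centring of the component 49 and 367. With quantile normalization there were 118 and 110. That setting gives every library the same distribution of component values, so it cannot show whether an excess from A to B exists. The median coverage change was −0.08 in the bins that became A and −0.06 in those that became B, against −0.02 over all bins. The bins that switched lay near 0 at 10 h, with a median component of −0.08 for those that became A and 0.09 for those that became B. Leaving out 10 h replicate 1, 10 h replicate 2 or pre-S replicate 2 lowered the upward shifts to 1292, 1183 and 1166 and the downward ones to 1994, 1686 and 1873.

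Most switches were single bins, 44 of the runs that became A and 190 of those that became B. The longest run from B to A spanned 3 bins at chr11:24500001-24800000, with a component of −0.07 and −0.14 at 10 h and 0.08 and 0.07 in pre-S cells. Pard3b, a cell polarity gene, held runs of 2 bins at chr1:62000001-62200000 (−0.12 and −0.08 to 0.11 and 0.06) and at chr1:62400001-62600000. Myo18b, an unconventional myosin, held another at chr5:112600001-112800000, from −0.26 and −0.25 to 0.10 and 0.08, with 0.07 and 0.09 in the imminent division libraries. The only run of more than 1 bin from A to B was chr10:38100001-38300000, from 0.20 and 0.31 to −0.19 and −0.25, without a gene start. Of the single bins, those first in genome order were chr1:7400001-7500000, chr1:10300001-10400000 in the carboxypeptidase gene Cpa6, and chr1:21300001-21400000 with Khdc1a and Kcnq5. Coverage of the runs and bins named changed by −0.26, at Khdc1a and Kcnq5, to 0.16, at the first Pard3b run, and all kept their direction with coverage divided out. Without centring of the component the shift of the Pard3b runs was 0.10 and 0.08 instead of 0.18 and 0.17, and that of chr1:7400001-7500000 was −0.25 instead of −0.17.

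Promoter interactivity, the summed counts of a bin with a protein-coding gene start over pairs above the distance curve, was tested in 12369 bins. With loess offsets 4334 bins (35%) changed, 2240 higher (18.1%) and 2094 lower (16.9%) in pre-S cells, and with coverage in the offsets 4250 changed (34.4%), 2064 higher (16.7%) and 2186 lower (17.7%). Called the same way under both were 848 higher and 866 lower bins, while 126 went from higher to lower and 41 from lower to higher. Without 10 h replicate 1 the counts with loess offsets were 1361 higher and 1204 lower, and without pre-S replicate 1 they were 973 and 797. Without 10 h replicate 2 they were 1523 and 1363.

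The promoters of the leading bins are shown as the 250 bases before the gene start on the gene's strand (RefSeq, GRCm38.p6), 2 from bins that gained and 2 from bins that lost contacts, with each CG, the dinucleotide that is methylated in mammals, in capitals.
Vcan, chr13:89742513-89742762, minus strand: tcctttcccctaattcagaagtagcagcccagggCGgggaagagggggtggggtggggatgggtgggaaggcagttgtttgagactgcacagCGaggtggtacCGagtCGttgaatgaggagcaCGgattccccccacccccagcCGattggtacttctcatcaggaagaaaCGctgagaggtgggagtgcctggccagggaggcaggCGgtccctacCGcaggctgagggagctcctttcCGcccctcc
Inhba, chr13:16011601-16011850, plus strand: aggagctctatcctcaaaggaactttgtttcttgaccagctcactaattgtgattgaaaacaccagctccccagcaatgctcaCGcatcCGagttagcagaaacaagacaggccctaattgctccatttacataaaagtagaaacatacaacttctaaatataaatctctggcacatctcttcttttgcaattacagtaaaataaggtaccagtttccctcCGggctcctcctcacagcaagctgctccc
H2-Eb1, chr17:34305617-34305866, plus strand: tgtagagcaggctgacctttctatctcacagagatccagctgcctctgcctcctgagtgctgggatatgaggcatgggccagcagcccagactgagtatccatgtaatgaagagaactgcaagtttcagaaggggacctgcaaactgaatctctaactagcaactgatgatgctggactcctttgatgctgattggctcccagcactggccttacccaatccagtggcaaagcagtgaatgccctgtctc
5530401A14Rik, chr11:81860427-81860676, plus strand: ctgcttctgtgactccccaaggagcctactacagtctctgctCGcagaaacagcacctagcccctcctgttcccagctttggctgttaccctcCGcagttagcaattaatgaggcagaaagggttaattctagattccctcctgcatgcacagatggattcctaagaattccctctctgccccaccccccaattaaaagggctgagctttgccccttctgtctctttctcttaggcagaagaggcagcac
They held 10, 3, 0 and 2 CG in this order. Of 32851 promoter windows of this length, 37.8% held at least 10, 71% at least 3 and 81.2% at least 2.

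The leading bins that gained contacts each held a single gene, Vcan, Inhba, Cited2, Basp1 or Asb4. The Vcan bin (chr13:89699929-89750099) had 934 and 1017 normalised counts at 10 h and 1554 and 1475 in pre-S cells, and 1487 and 1398 in the imminent division libraries. Both pre-S libraries were above both 10 h libraries, by 0.63 ± 0.05 on the log2 scale (FDR = 4.28e-13). With coverage in the offsets the change was 0.30 (FDR = 0.000213). The Xrcc4 bin whose coverage rose in pre-S cells only, of the 3 groups given, lies 3 bins from this promoter bin, and its part in the Vcan result was not tested. Inhba, the activin A subunit, went from 766 and 793 to 1174 and 1121 (0.56 ± 0.06, 0.52 with coverage). Basp1, a membrane signalling protein of neurons, rose by 0.50 ± 0.06, Asb4, a SOCS-box ubiquitin ligase adaptor, by 0.41 ± 0.05, and Cited2, a coactivator that binds CBP and p300, by 0.39 ± 0.04 (0.13 with coverage).

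The leading bins that lost contacts held class II MHC, Cd300 and Oas1 genes, 5530401A14Rik and Metrnl. The H2-Eb1 and H2-Eb2 bin, of the class II MHC β chain, had 1921 and 1922 normalised counts at 10 h and 1413 and 1321 in pre-S cells (−0.49 ± 0.05, FDR = 2.77e-11, −0.71 with coverage). The bin of Cd300c and Cd300ld, myeloid immunoglobulin-like receptors, went from 1826 and 1826 to 1306 and 1341 (−0.46 ± 0.05), and that of Oas1h and Oas1g, 2′-5′-oligoadenylate synthetases induced by interferon, from 1958 and 1966 to 1425 and 1498 (−0.43 ± 0.05, −0.18 with coverage). 5530401A14Rik fell by 0.49 and Metrnl, a secreted protein related to meteorin, by 0.55 on the log2 scale. No pre-S library overlapped a 10 h library in these bins.

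The class II MHC region was followed gene by gene, chosen after its values were seen. All 14 gene starts tested from H2-Oa to H2-Eb2, in 6 neighbouring bins, had lower interactivity in pre-S cells under both offsets, as had 1630 of all 19004 genes tested. The loss was −0.20 ± 0.04 at H2-Oa, a modulator of peptide exchange, and −0.25 ± 0.05 in the bin of H2-DMa and H2-DMb2, which load peptides, and of Brd2. It was −0.18 ± 0.05 in the bin of H2-DMb1, the peptide transporter gene Tap1 and the immunoproteasome genes Psmb8 and Psmb9, and −0.33 ± 0.06 in that of Tap2 and H2-Ob. H2-Ab1 and H2-Aa, the chains of I-A, went from 1537 and 1529 to 1217 and 1190 (−0.35 ± 0.05, FDR = 2.35e-07). Coverage of the 6 bins changed by −0.07 to 0.06, except for a rise of 0.21 in the bin of Tap2 and H2-Ob, and with coverage in the offsets the losses ran from −0.32 at H2-Oa to −0.71 at H2-Eb1. The imminent division libraries were at 1210 and 1207 in the H2-Ab1 bin and at 1566 and 1453 in the H2-Eb1 bin.

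**Figure D5:**
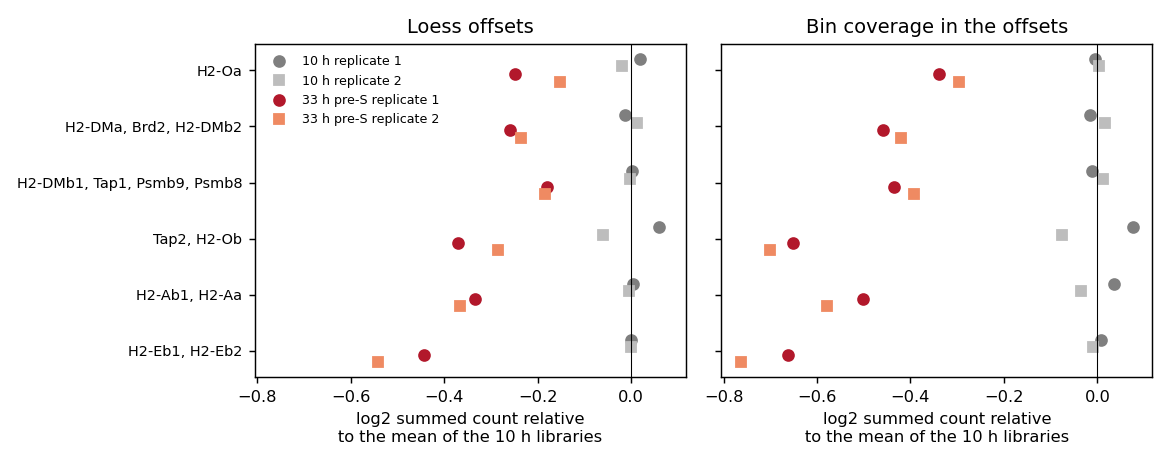
Summed contact counts of the 6 promoter bins of the class II MHC region as log2 relative to the mean of the 10 h libraries (x axis), with 1 point per library and a row per bin named by its genes, for loess offsets and for coverage in the offsets. Both pre-S points lie left of both 10 h points in every row of both panels.

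Of 9 loci that the study discusses, Myc lay in the segment left out and 8 were tested. Prdm1, which encodes Blimp-1, the driver of plasma cell fate, had 1594 and 1482 counts at 10 h and 1788 and 1775 in pre-S cells (0.22 ± 0.05, FDR = 0.00124, 0.18 with coverage). The pre-S libraries were the higher ones, but without 10 h replicate 2 the change was 0.16 (FDR = 0.0629), by DESeq2 its adjusted p was 0.0957, and the imminent division libraries were at 2139 and 2100. Twistnb, an RNA polymerase I subunit gene, rose from 1971 and 2025 to 2274 and 2232 (0.17 ± 0.04), but was at 0.07 (FDR = 0.0725) with no interaction filter. Id2, an inhibitor of E proteins, went from 2122 and 2165 to 2322 and 2380 (0.13 ± 0.04, 0.40 with coverage). Id2 no longer passed the test without 10 h replicate 1 (FDR = 0.110) or pre-S replicate 2 (FDR = 0.0825), with TMM factors (0.07, FDR = 0.224), with no interaction filter (0.06, FDR = 0.0968) or by DESeq2 (adjusted p = 0.0666). Bach2, a repressor of plasma cell genes, had 3155 and 3102 at 10 h and 2954 and 2910 in pre-S cells (−0.09, FDR = 0.0578), but its bin had lost 0.32 in log2 coverage, and with coverage in the offsets the change was 0.22 (FDR = 0.00113). With TMM factors it was −0.17 (FDR = 0.00114) and in a fit of only the 4 libraries −0.09 (FDR = 0.036), so the direction at Bach2 depended on the scaling. The promoter bins of Pax5 (−0.03 ± 0.04), Ebf1 (0.01 ± 0.04), Bcl6 (0.08 ± 0.04) and the elongation factor gene Ell2 (0.06 ± 0.07) did not pass the test, but Ell2 did with TMM factors (0.16, FDR = 0.0479) and with no interaction filter (0.16, FDR = 0.00943).

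Lists of genes were read against all 19004 genes tested, of which 15.9% lay in a higher and 19.2% in a lower bin and whose median log2 change was −0.02. With coverage in the offsets 2708 of them lay in a higher and 3865 in a lower bin, and under both offsets 1092 and 1630 did. The lists share libraries and their bins differ in GC content and coverage, and no list was tested. A bin can hold several gene starts, as the Mcm7 bin holds 7, and its change cannot be assigned to a single gene. Of 24 G1 cyclins, kinases, inhibitors and E2F factors, 4 were higher, 3 lower and 17 did not pass the test, with a median of 0.01, and 8 were higher and 2 lower with coverage in the offsets. Rb1, the retinoblastoma protein that restrains E2F, was at 0.19 ± 0.04 and Cdkn2c, the inhibitor p18, at 0.25 ± 0.05, and both also passed with coverage in the offsets. Ccnd1 (cyclin D1) was at −0.17, but at −0.01 (FDR = 0.886) with coverage, and did not pass by DESeq2 (adjusted p = 0.0514). E2f2 was at −0.14 and at −0.39 with coverage, but did not pass by DESeq2 (adjusted p = 0.103) or without any 1 of the 4 libraries (FDR from 0.058 to 0.115). Of 47 DNA replication genes, 11 were higher and 9 lower (median 0.01), and 5 and 10 with coverage. Orc4, of the origin recognition complex, led at 0.41 ± 0.05 (1591 and 1684 to 2252 and 2092), and Mcm7, of the replicative helicase, was at −0.23 ± 0.05 (1760 and 1752 to 1458 and 1534). The thymidylate synthase gene Tyms was at 0.18 (0.02 with no interaction filter, FDR = 0.618) and the polymerase δ gene Pold1 at −0.20 (−0.13 with coverage, FDR = 0.0622). Of 30 mitosis genes 5 were higher and 3 lower (median 0.02), and 2 and 4 with coverage. The kinesin gene Cenpe (0.29 ± 0.05) and the checkpoint gene Mad2l1 (0.25 ± 0.05) led the rises, but were at −0.03 and 0.08 with coverage in the offsets.

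Of 19 B cell receptor signalling genes, 7 were lower and 1 higher (median −0.09), and 5 and 1 with coverage. Their median with coverage in the offsets was −0.007, where that of all genes tested was −0.011. Examples are Blk, a Src family kinase, at −0.24 ± 0.04 (2168 and 2104 to 1805 and 1803) and Pik3ap1, the PI3-kinase adaptor BCAP, at −0.28 ± 0.06. Of the 7, 4 were lower with coverage as well, Blk and Pik3ap1 among them. Of 19 homing, quiescence and surface activation genes, 4 were lower and 1 higher (median −0.03), and 2 and 1 with coverage. Cd83, a surface molecule of activated B cells, led them by p, from 1920 and 1921 to 1505 and 1542 (−0.34 ± 0.05, −0.30 with coverage), while Il4ra, the interleukin 4 receptor, was at −0.20 and at 0.01 with coverage. Of 21 B cell transcription factors 2 were higher and 3 lower (median near 0), and 6 and 5 with coverage. Tcf3 was at −0.19 ± 0.04 and Spib, a relative of PU.1, in the bin of Pold1 at −0.20 ± 0.04. Mef2c was at 0.32 ± 0.05 (0.02 with coverage). Of 14 genes of growth and nutrient uptake, 6 were lower and 1 higher (median −0.09), and 4 and 2 with coverage. The glucose transporter Slc2a1 was at −0.17 and the amino acid transporter Slc7a5 at −0.17, both in GC-rich bins of 49.6% and 51.5%. Coverage of these bins changed by −0.04 and 0.01. With coverage in the offsets the genes were at −0.24 (FDR = 0.000982) and −0.30 (FDR = 9.02e-05). With loess offsets neither passed by DESeq2 (adjusted p = 0.0502 and 0.0605).

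Of 14 antibody secretion genes 4 were higher and 1 lower (median 0.02), and 4 and 1 with coverage. Called so under both offsets were 2 and 0, where 1092 and 1630 of all 19004 genes were. Sdc1, the plasma cell marker CD138, was at 0.20 ± 0.05 (0.26 with coverage) beside Prdm1. Of 21 genes of the LPS receptor and NF-κB 3 were higher and 2 lower (median 0.01), and 4 and 3 with coverage, with Nfkbiz, an inducible IκB protein, at 0.30 ± 0.04 (0.09 with coverage) and Rela at −0.17. Of 15 immediate early factors 1 was higher and 1 lower (median −0.05), and 3 and 1 with coverage. The higher one was the orphan receptor gene Nr4a3 at 0.13, which did not pass with TMM factors (0.08, FDR = 0.167) or by DESeq2 (adjusted p = 0.102), and the lower one was Egr3 at −0.16 (−0.09 with coverage, FDR = 0.21). Of 23 genes of RNA polymerase I and ribosome biogenesis 5 were higher and 4 lower (median −0.01), and 5 and 5 with coverage, with Wdr43 at 0.18 (0.27 with coverage). Pes1 was at −0.40, but at −0.04 (FDR = 0.825) with coverage and −0.14 (FDR = 0.247) with TMM factors. Of 16 cohesin, condensin, CTCF and lamina genes 4 were higher and 2 lower (median 0.05), and 2 and 2 with coverage, with the cohesin regulators Pds5a and Pds5b at 0.17 and 0.18 (0.01 and −0.04 with coverage), Lmnb2 at −0.17 and Ctcf at −0.13 (−0.10 with coverage, FDR = 0.141). Histone gene starts, 67 in only 16 bins, were 19 higher and 16 lower (median 0.03), and 0 and 14 with coverage.

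Genes of other cell types were called as well. Of 11 myeloid genes 7 were lower and 0 higher (median −0.12), and 4 and 1 with coverage, among them S100a8 and S100a9 at −0.16 in a shared bin (−0.11 with coverage, FDR = 0.131, and −0.01 with no interaction filter). Of 10 T cell genes 3 were lower and 1 higher (median −0.03), and 0 and 1 with coverage, with Thy1 at −0.35 ± 0.05 (−0.07 with coverage). Of 9 natural killer and erythroid genes 3 were higher and 2 lower (median −0.05), and 4 and 1 with coverage. Ncr1 was at −0.29, but did not pass with coverage (−0.17, FDR = 0.112), with TMM factors (−0.11, FDR = 0.283) or by DESeq2 (adjusted p = 0.0512). Of 11 liver and neural genes tested 3 were higher and 2 lower (median −0.02), and 1 and 3 with coverage, with the synaptic genes Syt1 at 0.44 and Grin2b at −0.34. The Syt1 bin had gained 0.41 in log2 coverage, and with coverage in the offsets it was at −0.09 (FDR = 0.528). Grin2b was at −0.03 (FDR = 0.45) with no interaction filter. Contact counts do not measure expression, and no part of these cell types in the sorted cells was tested. Large gene families were read against the 3025 higher and 3643 lower of all 19004 genes with loess offsets and the 2708 and 3865 with coverage. Of 757 olfactory receptor genes in 385 bins, of which 27.9% lay in A, 175 were higher and 93 lower with loess offsets, and 16 and 253 with coverage (medians 0.04 and −0.11), and of 189 vomeronasal receptor genes, 19% in A, 51 and 14 became 4 and 41. Of 355 Zfp genes, 87.9% in A, 31 were higher and 73 lower, and 30 and 79 with coverage.

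Leaving out 1 library ended some of the calls named in these lists, while their log2 changes kept their direction and stayed within 1.5 times, except for Nr4a3 (0.08) and Slc2a1 (−0.09) without pre-S replicate 1. Without 10 h replicate 1 those of Wdr43, Nr4a3, Pds5a, Pds5b, Lmnb2, Slc2a1 and Slc7a5 ended (FDR from 0.0584 for Slc2a1 to 0.101 for Nr4a3). Without 10 h replicate 2 those of Ccnd1, Nr4a3, Sdc1 and Ctcf did (FDR from 0.0503 for Ccnd1 to 0.0878 for Nr4a3). Without pre-S replicate 1 those of Ccnd1, Tyms, Wdr43, Pes1, Tcf3, Rela, Nr4a3, Egr3, Pds5a, Pds5b, Lmnb2, Slc2a1, Slc7a5, S100a8 and S100a9 did (FDR from 0.0564 for Tcf3 to 0.367 for Nr4a3), and without pre-S replicate 2 those of Ctcf and Ncr1 (FDR = 0.136 and 0.051).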

How the data were processed

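In situ Hi-C libraries of 10 h and 33 h pre-S B cells were analysed, with the other 4 libraries in the same fits. The authors aligned reads to mm10, marked duplicates and removed dangling ends and over-long fragments. Each deposited file holds a library's raw counts of read pairs between 50 kb bins, unbalanced and without coordinates, so the bins were rebuilt from MboI fragments of GRCm38. Bins with over 10% undetermined bases or coverage over 4-fold from the median were left out (756 autosomal bins), as was chromosome 15 from 55 to 72 Mb. The study also discarded blacklisted, centromeric and telomeric regions. That filter was not applied here, also not to the first bins of chromosomes named with the coverage results. Bin pairs with a summed count of at least 10 and 4-fold the background were tested with edgeR 4.0.16 (quasi-likelihood, 1-way layout over 8 libraries, loess offsets split at 1.5 Mb). An earlier step had already set a slightly higher minimum on the summed count. Boundaries used edgeR's test against a fold of 1.1, compartments limma 3.58.1, promoters edgeR with a count minimum of 200 on pairs over the distance curve plus 2 residuals. FDR is Benjamini-Hochberg. Normalised counts are counts divided by the offsets. DESeq2 1.42.0 and other settings were alternatives. Every test was also run on simulated data. Their spread was taken from the real tables, except for boundaries, where it was fixed. The simulated libraries held no shift of coverage with GC content. For interactions, simulated on chromosome 1, 51.5% of 2-fold changes were recovered. The other tests recovered 96.5% to 100% of their seeded changes. The labels' replicate numbers were not used to pair libraries, since replicate differences of the groups correlated at −0.000388 over bin pairs, −0.0666 over promoter bins and −0.0859 over coverage.

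Named items were the leading ones by p in each direction, over 1 or 2 Mb apart and without overlap of the groups where the text says so, the longest runs of switched bins, up to 2 genes of each direction in each list, and the loci that the study discusses. The members, lists and tests were chosen with earlier results of these data known. Depth is given with the results. Some items are not reported here.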

Additional observations from a re-analysis of the deposited data

Results flagged for a closer look

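A signal stood in the segment of chromosome 15 from 55 to 72 Mb, which the comparisons did not use. With the segment kept in the fit, 5.98% of the 12816 bin pairs that touch it were differential interactions, 135 strengthened and 631 weakened in pre-S cells. Elsewhere 0.544% of 1445761 pairs were (7864). The segment holds Myc, whose promoter was therefore not tested. No cause was tested.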

How the results depend on the processing

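Counts of DIs moved with nearly every setting. Strengthened and weakened DIs numbered 2852 and 5189 with coverage in the offsets, 3006 and 6655 with 1 TMM factor a library, and 978 and 912 with offsets per distance class. With an abundance limit of 8-fold they numbered 7002 and 4877, and with a limit of 2-fold 1595 and 657. The 2-fold setting dropped the count minimum of the main test, but an earlier step had already set a minimum on the summed count. In 100 kb bins there were 7682 and 7176, in a fit of only the 4 libraries 7538 and 5392, and by DESeq2 52 and 15. At an unadjusted p under 0.05 the main test had 164994 pairs and DESeq2 39910. Leaving out 1 library gave 161 to 1113 strengthened and 43 to 435 weakened DIs. Every DI that DESeq2 called was among the main calls. The replicate number as a block left 3469 and 2114 DIs, 11836 and 9639 bins of higher and lower coverage, 388 and 630 boundary ratios, 2404 and 3019 compartment shifts and 2084 and 1932 promoter bins, each within 1.5 times, and since the numbers do not pair the samples it is only an alternative.

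Bins of lower coverage numbered 6777 by DESeq2 and 5896 to 7686 without 1 library. Larger and smaller boundary ratios numbered 2017 and 2381 without the fold threshold and 218 and 370 over 500 kb a side, smaller ones 437 with coverage in the offsets, and 190 to 329 and 350 to 475 without 1 library. The component was higher in 611 and lower in 5211 bins without centring, an alternative chosen after seeing the data, and in 1166 to 1857 and 1686 to 2435 without 1 library. Switches from B to A numbered 21 in 250 kb bins and 118 with quantile normalization, and from A to B 110 with quantile normalization and 367 without centring. Higher and lower promoter bins numbered 3394 and 3297 with no interaction filter, 1165 and 984 by DESeq2, and 973 to 1998 and 797 to 1779 without 1 library.

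With coverage divided out, the share of pairs in pre-S minus 10 h cells, in percentage points, was −1.03 at 5 to under 20 Mb, −2.06 at 20 Mb and over, −0.18 for A–A at 5 to under 20 Mb, 0.00272 for B–B at 500 kb to under 1.5 Mb, and of the opposite sign for A–A at 100 kb to under 500 kb (0.87) and B–B at 20 Mb and over (−1.54). Over off-diagonal pairs only it was 0.86 at 500 kb to under 1.5 Mb, 0.87 for B–B there and −1.07 for A–A at 5 to under 20 Mb. The share of adjacent bins lay between −0.0701 and 0.33 without 1 library. With coverage in the offsets the log2 change of the pair at chr2:81299211 was −0.32, and these promoters changed sign: Bach2 (0.22), Ebf1 (−0.055), Cenpe (−0.029), Bcl11a (−0.15), Nfkb1 (−0.013), Ptprc (−0.014), Il4ra (0.012), Pds5b (−0.043), Hba-a1 (0.059), Syt1 (−0.088) and Gria2 (−0.048). Ebf1 was at −0.069 with TMM factors and at −0.0199 to 0.036 without 1 library, and Pax5 (0.012) and Myd88 (0.0071) changed sign with no interaction filter. The named DIs were not traced to 100 kb bins, nor the compartment runs to 250 kb bins. The cause of these moves was not tested, except that leaving out a library leaves fewer samples. The leading DIs held 21 to 481 raw counts a library, and what depth limits was not tested.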
